A study of Mus musculus with 6 samples.

Results

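The genes described here are 36 protein-coding genes of mitosis, from cyclins and kinases that start it to the proteins that divide the cell. They were chosen by symbol from a list written with earlier results of these data known. Their counts beside those of all genes therefore describe the list and do not test it. All 36 were present among the 11164 genes of the deposited expression table. RNA was measured by poly(A)-selected sequencing in colonies of adult mouse pancreatic cells of the strain C57Bl/6, taken from animals of 2 to 4 months. Cells sorted for high CD133 and low CD71 were exposed overnight to lentivirus and cultured as colonies for 3 weeks under puromycin, in a semi-solid medium that held Matrigel, RSPO1, serum, conditioned medium, activin B, exendin-4 and nicotinamide. The Glis3 knockdown colonies carried a pool of 5 shRNA clones against Glis3, a zinc-finger transcription factor. The CD133 knockdown colonies carried a pool of 5 clones against CD133, the membrane protein encoded by Prom1, and the control colonies carried 1 shRNA with no mammalian target. Each group had 2 libraries, numbered 1 and 3, and pairs of values below give library 1 and then library 3. The labels leave it unsaid whether the pair of libraries in a group had different animals or cultures as source, and every p-value below therefore rests on a spread between libraries that may be technical.

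Most of these genes are copied into RNA in a wave late in the cell cycle and are little transcribed in resting cells. Their summed RNA in a culture can therefore change with how many cells are dividing. Cyclin B with the kinase CDK1 drives entry into mitosis, kinetochores tie chromosomes to the spindle while a checkpoint holds back their separation, and the anaphase-promoting complex then ends mitosis by marking cyclins for destruction. In bulk colonies, a change in the number of cells of a kind and a change in RNA per cell cannot be told apart. Many such promoters carry CCAAT boxes, bound by the factor NF-Y, and a cell cycle genes homology region (CHR), bound by MuvB complexes that repress these genes in resting cells and activate them late in the cycle.

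The promoters of the members shared these letters. RefSeq windows (GRCm38.p6) from 250 bases before to 50 bases after an annotated start were matched by symbol for 31 of the 36 genes. A CHR, searched as TTTGAA or TTCGAA on both strands, lay in the windows of 25 of these 31 genes (80.6%), against 15.9% of the 8545 tested genes with a window and 21.7% of all 27025 genes with one. A CCAAT box, searched as CCAAT on both strands, lay in 24 of 31 (77.4%), against 43.1% of tested genes, and both motifs lay in 22 of 31 (71.0%), against 7.96%. In 23 of the 31 genes a CHR began between 35 bases before and 45 bases after the start, a range chosen after the positions were seen, against 3.69% of tested genes. The E2F letters TTCCCGCC and TTTGGCGC, searched on both strands, were in the windows of 0 of 31 members and of 6.18% of tested genes. Of the 35 CHR matches in the first listed window of each gene, 1 shared a base with a CCAAT box. Stretches of 110 bases, ending 10 bases past the start, are shown for 6 genes from 4 of the roles below because they hold both motifs close to the start. Matches to a CHR or a CCAAT box on either strand are in capitals, and a match in letters is not a measured binding site.
Cdk1 (chr10:69352903-69353012, minus strand): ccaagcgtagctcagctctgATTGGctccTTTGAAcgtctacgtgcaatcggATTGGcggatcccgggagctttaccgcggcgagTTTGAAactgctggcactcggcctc
Ccnb2 (chr9:70421545-70421654, minus strand): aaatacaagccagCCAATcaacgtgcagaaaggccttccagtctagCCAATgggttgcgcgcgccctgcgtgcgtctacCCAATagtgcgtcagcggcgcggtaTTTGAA
Cdc20 (chr4:118437334-118437443, minus strand): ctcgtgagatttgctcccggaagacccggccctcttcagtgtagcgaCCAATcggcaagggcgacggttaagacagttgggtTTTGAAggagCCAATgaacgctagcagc
Ube2c (chr2:164769829-164769938, plus strand): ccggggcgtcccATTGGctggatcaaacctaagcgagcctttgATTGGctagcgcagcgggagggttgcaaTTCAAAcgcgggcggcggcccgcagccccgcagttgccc
Top2a (chr11:99024180-99024289, minus strand): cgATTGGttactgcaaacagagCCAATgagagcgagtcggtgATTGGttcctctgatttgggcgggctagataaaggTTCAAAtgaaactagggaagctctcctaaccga
Kif11 (chr19:37376282-37376391, plus strand): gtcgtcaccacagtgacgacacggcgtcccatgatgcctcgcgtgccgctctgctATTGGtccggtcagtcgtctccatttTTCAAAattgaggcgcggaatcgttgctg
In Ccnb2 the 3 CCAAT boxes were spaced 33 bases apart and a CHR covered positions 5 to 10 after the start. In Cdc20 and Kif11 the CHR nearest to the start began 18 and 19 bases before it, and in Ube2c and Top2a 29 and 23 bases before it.

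**Figure D1:**
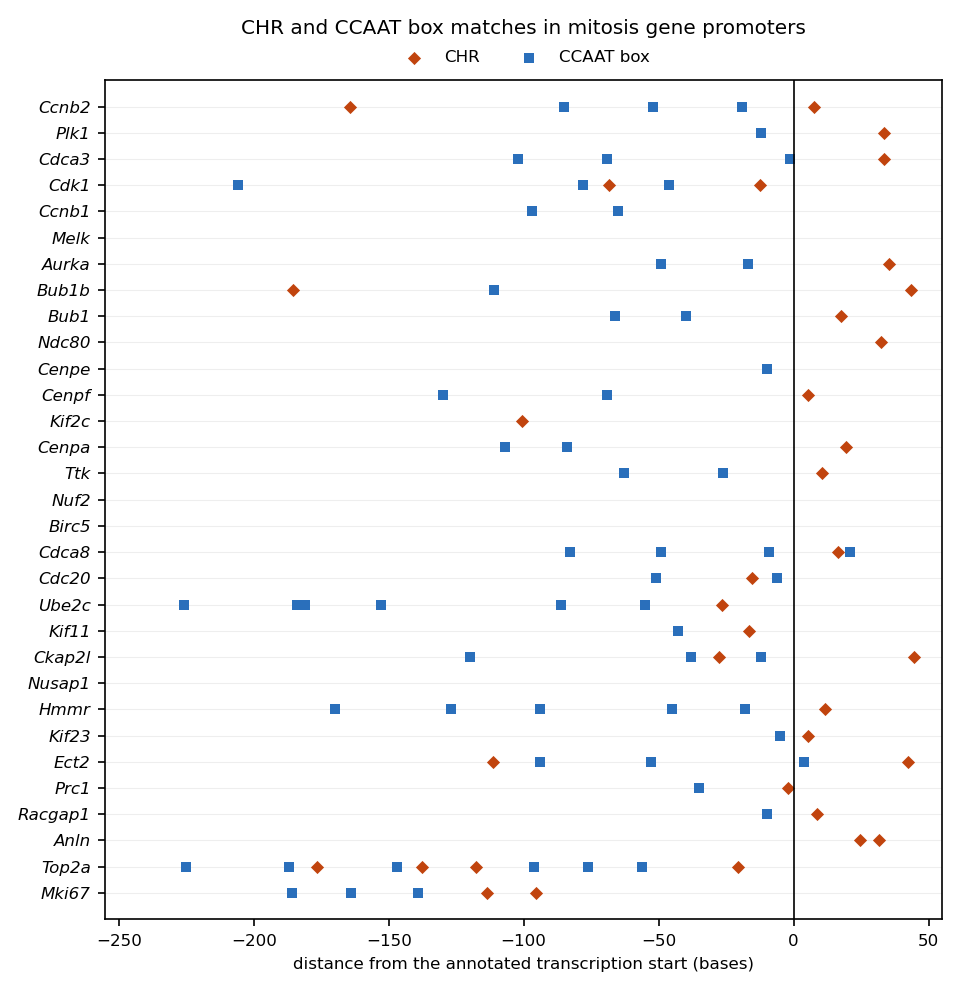
Positions of CHR (diamonds) and CCAAT box (squares) matches on either strand in the promoter windows of 31 mitosis genes, 1 gene per row, with the distance from the annotated transcription start in bases on the x axis (first listed window of each gene). In 23 of the 31 genes a CHR began between 35 bases before and 45 bases after the start.

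The values are RPKM (reads per kilobase of transcript, scaled to sequencing depth), which can be compared between genes, and the table holds genes that reached 1.00 RPKM in at least 1 library. Depth, estimated from the steps of low values, was 25.8 to 29.2 megareads per library, which puts about 85 to 11400 reads behind each member's value, with a median of 696. Glis3 stood at 13.3 and 11.96 RPKM in the Glis3 knockdown libraries, against 26.1 and 24.2 RPKM in control, and Prom1 at 88.0 and 96.0 RPKM in the CD133 knockdown libraries, against 191 and 203 RPKM in control, so each pool lowered its own target. The labelled epithelial cells showed Epcam and Krt8 at 327 RPKM or more in every library. Of 9 mesenchymal, 5 endothelial and 4 Schwann cell markers, 0 were among the genes with values, and of 8 immune markers Cd68 alone was, at 5.12 to 6.39 RPKM.

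Mitosis genes lay higher in both knockdowns than in control colonies. In the Glis3 knockdown 35 of the 36 rose and 0 fell, by limma's moderated test with 0.05 as the limit on the adjusted p, against 8.39% of all 10829 tested genes called higher and 4.53% called lower. Their median log2 fold change, on the log2(RPKM + 1) scale, was 0.79, beside 0.04 over all tested genes, and the ratios of mean RPKM ran from 1.49 in Ccnb1 to 2.28 in Melk. In the CD133 knockdown 22 rose, 0 fell and 14 did not pass, against 8.16% of tested genes called higher and 3.64% called lower, with a median of 0.53 beside 0.04 over all genes and ratios from 1.38 to 1.97. Both libraries of the knockdown lay above both control libraries for 36 of 36 members in each comparison, a separation seen for 38.5% of tested genes in the Glis3 knockdown and 40.3% in the CD133 knockdown. The 2 comparisons share their control libraries. Without control library 1 or 3 the Glis3 count was 0 or 1 and the CD133 count 0 and 0, while the medians stayed between 0.76 and 0.83 for Glis3 and between 0.50 and 0.56 for CD133. The CD133 count was also 0 without CD133 knockdown library 1 and 7 without library 3, and 36 without either Glis3 knockdown library, which enter this comparison through the shared estimate of spread.

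**Figure D2:**
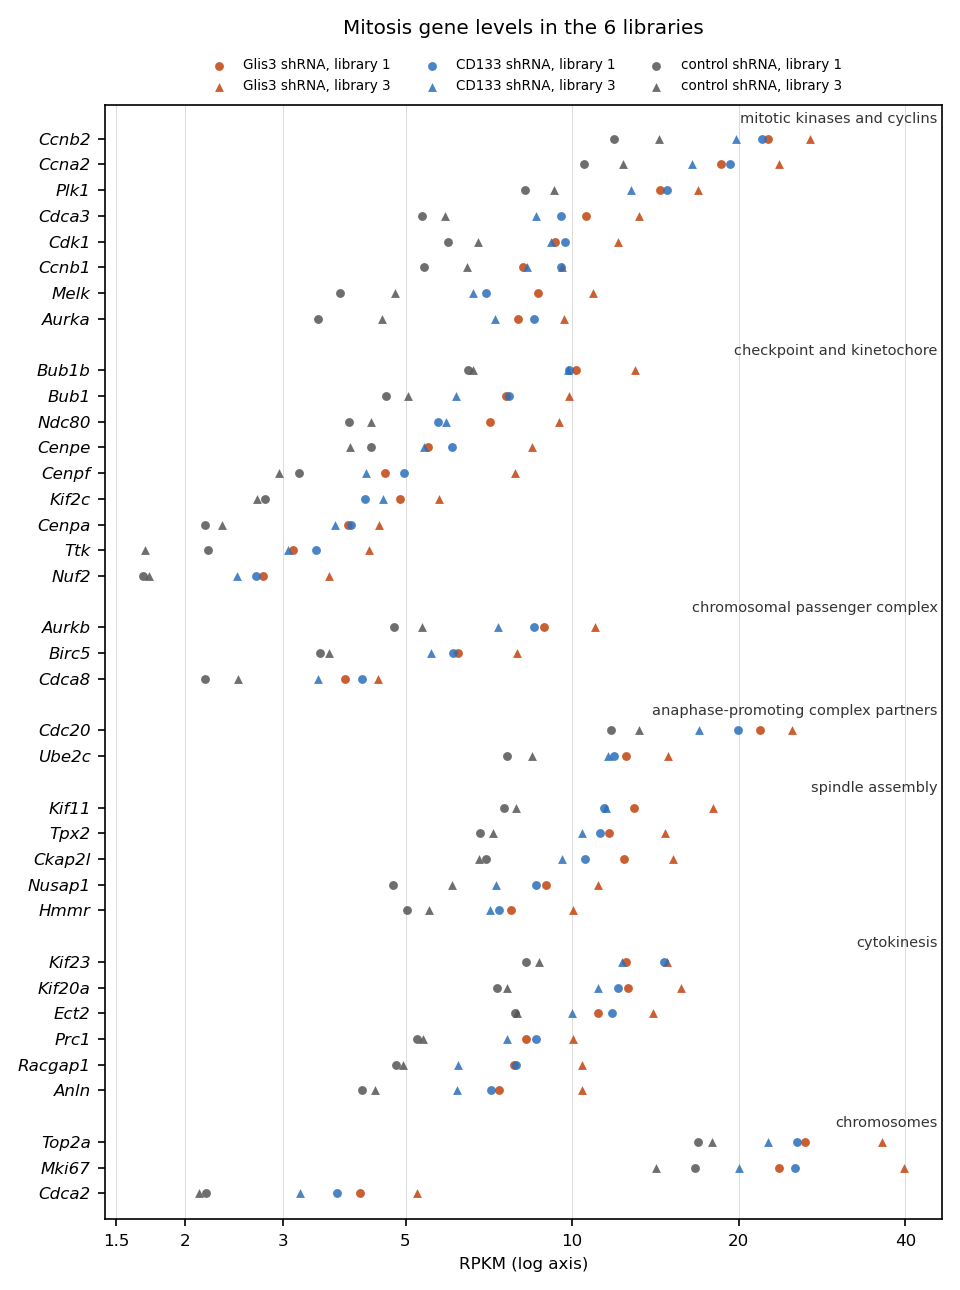
RPKM of each of the 36 mitosis genes on a log axis, grouped by role, with the 2 Glis3 knockdown libraries, the 2 CD133 knockdown libraries and the 2 control libraries as points. In every row the 4 knockdown points lie to the right of both control points.

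The libraries differed among themselves within a group. Relative to each gene's control mean, the median log2 value over the 36 genes was 0.62 and 0.96 in the Glis3 knockdown libraries, 0.60 and 0.46 in the CD133 knockdown libraries, and -0.04 and 0.04 in the control libraries. Glis3 knockdown library 3 held the highest value of all 6 libraries for 36 of 36 members, against 23.9% of tested genes. It stood above library 1 for 36 of 36, against 45.9% of tested genes, by 1.14-fold in Cenpa to 1.72-fold in Cenpf. Over all tested genes the median log2 difference between those libraries was -0.01. By longest annotated transcript, Cenpa is the shortest of the 36, at 1466 bases, and Cenpf the longest, at 11130 bases. Mki67 (10061 bases) and Cenpe (7910 bases) had the next widest ratios. In control, Cenpf, Mki67 and Cenpe were instead lower in library 3 than in library 1. Whether transcript length had a part in these gaps was not tested. CD133 knockdown library 1 stood above library 3 for 33 members, against 48.9% of tested genes, with a median ratio of library 3 to library 1 of 0.889, and the other 3 members lay the other way, against 50.5%. Control library 3 stood above library 1 for 29 members, against 51.1%. The lowest value of the 6 libraries was in control library 1 for 29 members and in control library 3 for 7. Without Glis3 knockdown library 3 the Glis3 median was 0.62 and 25 members rose, and without library 1 it was 0.96 and 36 rose. Glis3 itself stood at 13.3 and 11.96 RPKM in the Glis3 knockdown libraries, and a part of knockdown depth in their difference was not tested.

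**Figure D3:**
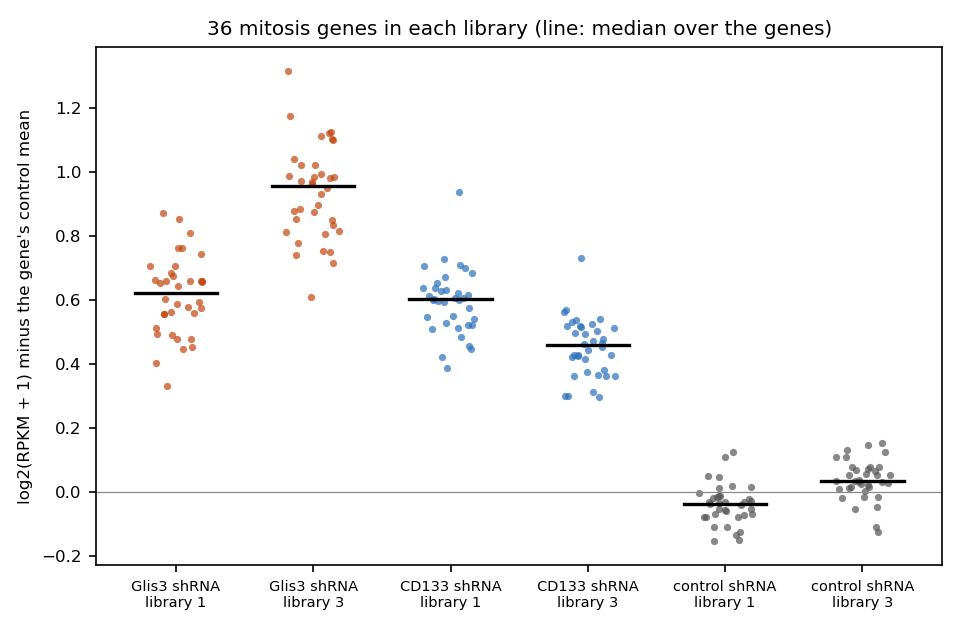
Each point is 1 of the 36 mitosis genes in 1 library, drawn as log2(RPKM + 1) minus that gene's mean over the 2 control libraries, and the black line is the median over the genes. The medians are 0.62 and 0.96 in the Glis3 knockdown, 0.60 and 0.46 in the CD133 knockdown, and -0.04 and 0.04 in control.

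Counts by role stand beside 8.39% of all tested genes called higher in the Glis3 knockdown and 8.16% in the CD133 knockdown. Differences between roles were not tested. Cyclins and kinases that bring cells into mitosis rose in both knockdowns, 8 of 8 in each. Ccnb2, which encodes cyclin B2 and was the most abundant of them, stood at 22.6 and 26.9 RPKM in the Glis3 knockdown, 22.01 and 19.8 RPKM in the CD133 knockdown, and 11.9 and 14.4 RPKM in control. All 4 knockdown values lay above both controls, and the log2 fold change was 0.86 (standard error, SE, 0.114, limma adjusted p = 0.00929) in the Glis3 knockdown and 0.64 (SE 0.114, limma adjusted p = 0.0226) in the CD133 knockdown. Melk, a kinase of dividing and progenitor cells (ENSMUSG00000035683.13, chromosome 4: 44300876 to 44364675, plus strand, GRCm38), stood at 8.66 and 10.9 RPKM in the Glis3 knockdown, 6.99 and 6.62 RPKM in the CD133 knockdown, and 3.81 and 4.78 RPKM in control. It had the largest Glis3 change of the 36, a log2 fold change of 1.02 (SE 0.124, limma adjusted p = 0.0079), and 0.57 in the CD133 knockdown (limma adjusted p = 0.0346). Aurka, the centrosome kinase Aurora A (ENSMUSG00000027496.15, chromosome 2: 172356190 to 172370535, minus strand), had the largest CD133 change, with 7.98 and 9.67 RPKM in the Glis3 knockdown, 8.53 and 7.26 RPKM in the CD133 knockdown, and 3.47 and 4.53 RPKM in control. Its groups did not overlap with control, and its log2 fold change was 0.98 (limma adjusted p = 0.00969) in the Glis3 knockdown and 0.84 (limma adjusted p = 0.0193) in the CD133 knockdown.

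Ccnb1, which encodes cyclin B1 (ENSMUSG00000041431.16, chromosome 13: 100778650 to 100786570, minus strand), had the smallest Glis3 change, with 8.15 and 9.57 RPKM in the Glis3 knockdown, 9.54 and 8.30 RPKM in the CD133 knockdown, and 5.41 and 6.47 RPKM in control. Its knockdown groups overlapped each other and lay above control, with log2 fold changes of 0.51 in the Glis3 knockdown (limma adjusted p = 0.0325) and 0.52 in the CD133 knockdown (limma adjusted p = 0.0324). The other members of the role rose by 0.66 to 0.96 in the Glis3 knockdown and by 0.50 to 0.61 in the CD133 knockdown. They were Cdk1, the kinase partner of cyclin B, Ccna2 (cyclin A2), Plk1 (the polo-like kinase of spindle formation) and Cdca3, which promotes the destruction of a brake on mitotic entry.

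Genes of the kinetochore and of the spindle checkpoint rose in the Glis3 knockdown, 8 of 9, and 3 of 9 in the CD133 knockdown. The shares of all tested genes called higher were 8.39% and 8.16%. Bub1b, the checkpoint protein BubR1 and the most abundant of the role, stood at 10.2 and 13.0 RPKM in the Glis3 knockdown, 9.86 and 9.83 RPKM in the CD133 knockdown, and 6.49 and 6.63 RPKM in control. Controls were close together and below all knockdown values, and Bub1b rose by 0.72 (limma adjusted p = 0.0108) in the Glis3 knockdown and by 0.52 (limma adjusted p = 0.0276) in the CD133 knockdown. Ndc80, the microtubule-binding core of the kinetochore, stood at 7.12 and 9.46 RPKM in the Glis3 knockdown, 5.73 and 5.92 RPKM in the CD133 knockdown, and 3.96 and 4.34 RPKM in control. The 3 groups did not overlap, with a log2 fold change of 0.84 (SE 0.118, limma adjusted p = 0.0107) in the Glis3 knockdown and 0.41 (SE 0.118, limma adjusted p = 0.0696) in the CD133 knockdown. Its partner gene Nuf2 stood at 2.76 and 3.63 RPKM in the Glis3 knockdown, 2.68 and 2.48 RPKM in the CD133 knockdown, and 1.68 and 1.72 RPKM in control, the lowest mean level of the 36. It rose by 0.63 in the Glis3 knockdown and had a value of 0.41 in the CD133 knockdown (limma adjusted p = 0.0567).

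The member that did not pass in the Glis3 knockdown was Cenpe, a kinetochore motor that lines up chromosomes (ENSMUSG00000045328.11, chromosome 3: 135212537 to 135273611, plus strand). It stood at 5.48 and 8.47 RPKM in the Glis3 knockdown, 6.07 and 5.40 RPKM in the CD133 knockdown, and 4.34 and 3.97 RPKM in control. The Glis3 knockdown libraries were far apart yet both above control, and the log2 fold change was 0.60 (95% confidence interval 0.21 to 1.00, limma adjusted p = 0.0607), against 0.38 in the CD133 knockdown (limma adjusted p = 0.173). Cenpf, a large kinetochore protein, was as spread, at 4.59 and 7.90 RPKM in the Glis3 knockdown, 4.96 and 4.24 RPKM in the CD133 knockdown, and 3.21 and 2.95 RPKM in control. Its log2 fold change was 0.79 in the Glis3 knockdown (limma adjusted p = 0.0486) and 0.45 in the CD133 knockdown (limma adjusted p = 0.179).

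The checkpoint kinase gene Bub1 stood at 7.59 and 9.86 RPKM in the Glis3 knockdown, 7.68 and 6.16 RPKM in the CD133 knockdown, and 4.61 and 5.05 RPKM in control. Ttk, the checkpoint kinase Mps1, stood at 3.13 and 4.29 RPKM in the Glis3 knockdown, 3.45 and 3.07 RPKM in the CD133 knockdown, and 2.20 and 1.69 RPKM in control. Both rose in the Glis3 knockdown, Bub1 by 0.73 and Ttk by 0.67, and neither passed in the CD133 knockdown, at 0.44 (limma adjusted p = 0.0811) and 0.54 (limma adjusted p = 0.0535). Kif2c, a microtubule-depolymerizing kinesin, and Cenpa, the histone H3 variant that marks centromeres, rose in both, by 0.75 and 0.68 in the Glis3 knockdown and by 0.53 and 0.58 in the CD133 knockdown.

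Members of the chromosomal passenger complex, which corrects faulty attachments and then moves to the cleavage site, rose in both knockdowns, 3 of 3 in each. Aurkb, its kinase Aurora B, stood at 8.89 and 11.0 RPKM in the Glis3 knockdown, 8.52 and 7.35 RPKM in the CD133 knockdown, and 4.76 and 5.36 RPKM in control. No group overlapped another, and Aurkb rose by 0.85 (SE 0.113, limma adjusted p = 0.00944) in the Glis3 knockdown and by 0.56 (SE 0.113, limma adjusted p = 0.029) in the CD133 knockdown. Birc5 (survivin) and Cdca8 (borealin), which hold the complex together, rose by 0.81 and 0.64 in the Glis3 knockdown and by 0.58 and 0.53 in the CD133 knockdown. Partners of the anaphase-promoting complex did likewise, 2 of 2 in each. For both roles the shares of all tested genes called higher were 8.39% in the Glis3 knockdown and 8.16% in the CD133 knockdown. Cdc20, the activator that the checkpoint holds back and whose promoter is printed above, stood at 21.8 and 25.0 RPKM in the Glis3 knockdown, 19.9 and 16.9 RPKM in the CD133 knockdown, and 11.7 and 13.2 RPKM in control. It rose by 0.86 (SE 0.102, limma adjusted p = 0.0078) in the Glis3 knockdown and by 0.53 (limma adjusted p = 0.0267) in the CD133 knockdown. Ube2c, the ubiquitin-conjugating enzyme of that complex, rose by 0.70 in the Glis3 knockdown and by 0.50 in the CD133 knockdown.

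Spindle genes rose in the Glis3 knockdown, 5 of 5, and 2 of 5 rose in the CD133 knockdown. The shares of all tested genes called higher were 8.39% and 8.16%. Kif11, the kinesin that pushes spindle poles apart, stood at 12.9 and 17.96 RPKM in the Glis3 knockdown, 11.4 and 11.5 RPKM in the CD133 knockdown, and 7.53 and 7.91 RPKM in control. Each group was separate from the others, with a log2 fold change of 0.90 (limma adjusted p = 0.0121) in the Glis3 knockdown and 0.52 in the CD133 knockdown, where it narrowly missed the threshold (limma adjusted p = 0.0519). Ckap2l, a spindle-associated protein, stood at 12.4 and 15.2 RPKM in the Glis3 knockdown, 10.5 and 9.57 RPKM in the CD133 knockdown, and 6.98 and 6.80 RPKM in control. It too had no overlap between groups and rose in both knockdowns, by 0.90 with Glis3 lowered (limma adjusted p = 0.00655) and by 0.49 with CD133 lowered (limma adjusted p = 0.029). Tpx2, which activates Aurora A on the spindle, rose by 0.82 in the Glis3 knockdown and by 0.56 in the CD133 knockdown. Nusap1, a microtubule bundler, stood at 8.96 and 11.2 RPKM in the Glis3 knockdown, 8.61 and 7.30 RPKM in the CD133 knockdown, and 4.75 and 6.06 RPKM in control. Hmmr, a hyaluronan receptor that also acts in spindle assembly, stood at 7.74 and 10.04 RPKM in the Glis3 knockdown, 7.39 and 7.12 RPKM in the CD133 knockdown, and 5.03 and 5.51 RPKM in control. Both genes rose in the Glis3 knockdown, by 0.79 and 0.65, and had values of 0.49 (limma adjusted p = 0.0642) and 0.40 (limma adjusted p = 0.0635) in the CD133 knockdown.

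Genes of cytokinesis, the division of the cell body, rose in the Glis3 knockdown, 6 of 6, and 3 of 6 rose in the CD133 knockdown. The shares of all tested genes called higher were 8.39% and 8.16%. Kif23, a motor of the central spindle, stood at 12.5 and 14.8 RPKM in the Glis3 knockdown, 14.7 and 12.3 RPKM in the CD133 knockdown, and 8.24 and 8.70 RPKM in control. The knockdowns overlapped, and it rose by 0.63 (limma adjusted p = 0.0158) in the Glis3 knockdown and by 0.61 (limma adjusted p = 0.0209) in the CD133 knockdown. Anln, the cleavage furrow scaffold anillin, stood at 7.37 and 10.4 RPKM in the Glis3 knockdown, 7.14 and 6.19 RPKM in the CD133 knockdown, and 4.18 and 4.40 RPKM in control. With separate groups, it rose by 0.89 (limma adjusted p = 0.0145) in the Glis3 knockdown and stood at 0.53 (limma adjusted p = 0.0586) in the CD133 knockdown. Racgap1, the partner of Kif23, stood at 7.86 and 10.4 RPKM in the Glis3 knockdown, 7.92 and 6.23 RPKM in the CD133 knockdown, and 4.80 and 4.94 RPKM in control. Ect2, which activates the RhoA GTPase at the furrow, stood at 11.2 and 14.0 RPKM in the Glis3 knockdown, 11.8 and 9.99 RPKM in the CD133 knockdown, and 7.90 and 7.94 RPKM in control. Controls agreed closely for both genes, which rose by 0.78 and 0.60 in the Glis3 knockdown and had values of 0.45 (limma adjusted p = 0.084) and 0.41 (limma adjusted p = 0.0624) in the CD133 knockdown. Kif20a, a kinesin of the midzone, and Prc1, which bundles midzone microtubules, rose in both, by 0.83 and 0.68 in the Glis3 knockdown and by 0.57 and 0.53 in the CD133 knockdown.

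The most abundant members in control act on chromosomes. Top2a, the topoisomerase that untangles them, stood at 26.4 and 36.3 RPKM in the Glis3 knockdown, 25.5 and 22.6 RPKM in the CD133 knockdown, and 16.9 and 17.9 RPKM in control. It rose by 0.80 (limma adjusted p = 0.0179) in the Glis3 knockdown and had a value of 0.45 (limma adjusted p = 0.0848) in the CD133 knockdown. Mki67, the proliferation marker Ki-67 that coats mitotic chromosomes (ENSMUSG00000031004.8, chromosome 7: 135689784 to 135716361, minus strand), stood at 23.6 and 39.8 RPKM in the Glis3 knockdown, 25.3 and 20.04 RPKM in the CD133 knockdown, and 16.6 and 14.2 RPKM in control. Its Glis3 knockdown libraries were the farthest apart in RPKM and their range enclosed the CD133 library 1 value, and the log2 fold change was 0.95 (SE 0.231, limma adjusted p = 0.0434) in the Glis3 knockdown and 0.52 (SE 0.231, limma adjusted p = 0.178) in the CD133 knockdown. Cdca2, which directs a phosphatase to chromosomes at mitotic exit, rose by 0.85 in the Glis3 knockdown and by 0.51 in the CD133 knockdown.

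**Figure D4:**
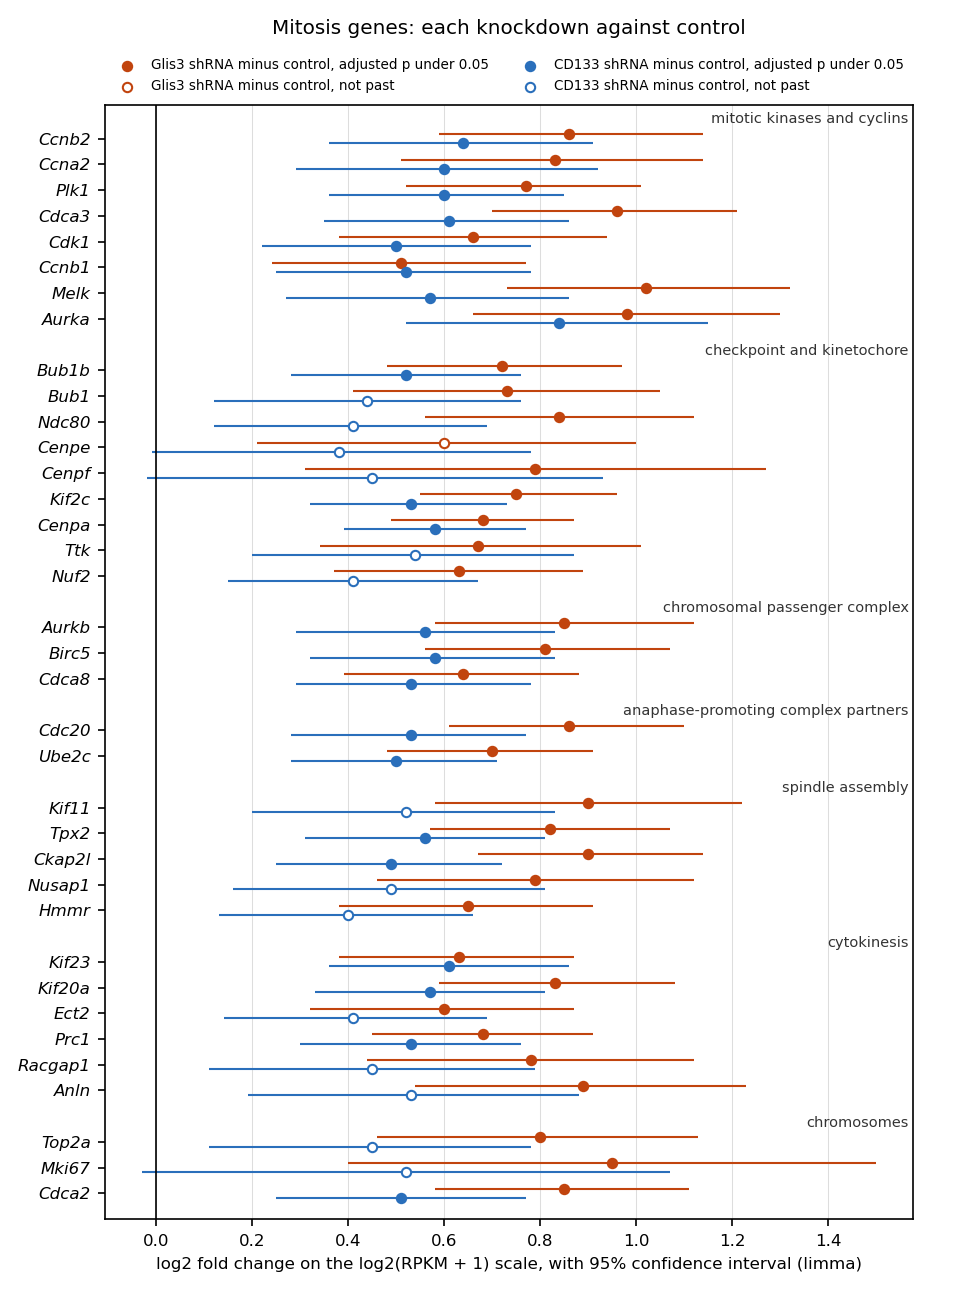
Log2 fold change of each mitosis gene on the log2(RPKM + 1) scale, Glis3 knockdown minus control and CD133 knockdown minus control, with the 95% confidence interval from limma, filled where the adjusted p was under 0.05. The Glis3 values run from 0.51 to 1.02 and the CD133 values from 0.38 to 0.84, with 35 and 22 of 36 filled.

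Whether the knockdowns differed was tested directly. None of the 36 genes was called between the Glis3 and the CD133 knockdown by limma (adjusted p from 0.0704 to 0.971). Of all tested genes 4.06% were called, 1.61% higher and 2.46% lower in the Glis3 knockdown. An unadjusted p under 0.05 was found for 13 of the 36, beside 2373 of all 10829 tested genes. The log2 differences of 35 of 36 genes were above 0, with a median of 0.24. Over all tested genes 5472 of 10829 were above 0, with a median of 0.0. The 95% confidence intervals of the 36 genes together spanned -0.27 to 0.98. A difference of 0.24 could therefore not be told from none for most of them. Ckap2l had the smallest adjusted p, with a log2 difference of 0.42 (interval 0.18 to 0.65, limma adjusted p = 0.0704), and Melk the largest difference, at 0.46 (interval 0.16 to 0.75, limma adjusted p = 0.0955). The Glis3 knockdown libraries both lay above both CD133 knockdown libraries for 20 of 36 genes, against 27.9% of tested genes. The size of the difference rested on the Glis3 knockdown libraries, since the median was 0.08 without library 3 and 0.41 without library 1.

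Other mitosis genes moved in the same direction, in lists also written with earlier results of these data known. Over all tested genes 8.39% were called higher in the Glis3 knockdown and 8.16% in the CD133 knockdown. Of 38 tested genes of the spindle, cytokinesis and mitotic entry outside the 36, 31 rose and 0 fell in the Glis3 knockdown (median 0.61), and 20 rose and 0 fell in the CD133 knockdown (median 0.46). Pbk (a mitotic kinase) and Gtse1 (a microtubule-associated protein) rose by 0.96 and 0.89 in the Glis3 knockdown, and Psrc1 (a spindle protein) and Gtse1 by 0.92 and 0.79 in the CD133 knockdown. Of 37 tested genes of the checkpoint and kinetochore, 25 rose in the Glis3 knockdown (median 0.50) and 15 in the CD133 knockdown (median 0.30), with 0 falls in either. The kinetochore genes Spc25 and Zwilch rose by 0.88 and 0.74 in the Glis3 knockdown and by 0.59 and 0.63 in the CD133 knockdown.

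The lists of condensin and cohesin and of the anaphase-promoting complex had smaller medians, a difference between lists that was not tested. Among 20 condensin and cohesin genes, 11 rose in the Glis3 knockdown (median 0.31) and 5 in the CD133 knockdown (median 0.18). Over all tested genes 8.39% and 8.16% were called higher. The list median mixes condensin genes, cohesin subunit genes and others, with large and small changes. The condensin genes Ncapg, Ncapd2 and Smc4 rose by 0.82, 0.78 and 0.73 in the Glis3 knockdown and by 0.54, 0.56 and 0.42 in the CD133 knockdown. The other condensin genes, Ncaph, Smc2, Ncapg2, Ncapd3 and Ncaph2, rose by 0.69, 0.65, 0.58, 0.32 and 0.30 in the Glis3 knockdown. Of these Ncaph alone passed in the CD133 knockdown, at 0.48. The cohesin subunit genes Smc3, Rad21, Smc1a, Stag1 and Stag2 did not pass in the Glis3 knockdown, at 0.19, 0.16, 0.12, 0.08 and 0.04. Among the others of the list, Esco2, Cdca5 and Espl1 rose by 0.70, 0.69 and 0.70 in the Glis3 knockdown. Cdca5 also rose in the CD133 knockdown, by 0.50, where Esco2 and Espl1 did not pass. Pttg1, Wapl, Pds5a and Pds5b did not pass in the Glis3 knockdown, at -0.07, 0.13, 0.16 and 0.02. Of 17 subunits and regulators of the anaphase-promoting complex, 2 rose in the Glis3 knockdown (median 0.10) and 1 in the CD133 knockdown (median 0.09), counts near the shares of all tested genes called higher, 8.39% and 8.16%. They were the inhibitor gene Fbxo5, at 0.61, and the conjugating enzyme gene Ube2s, at 0.27, in the Glis3 knockdown, and the subunit gene Anapc7, at 0.21, in the CD133 knockdown. The calls of Ube2s and Anapc7 were lost under most alternatives, among them median centring.

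Of 12 tested transcription factors of the cycle, 5 rose in the Glis3 knockdown (median 0.21) and 2 in the CD133 knockdown (median 0.18), with 0 falls, against 8.39% and 8.16% of all tested genes called higher. Foxm1, an activator of late cell cycle genes, stood at 6.84 and 8.75 RPKM in the Glis3 knockdown, 6.27 and 6.09 RPKM in the CD133 knockdown, and 4.82 and 4.04 RPKM in control. Mybl2, which encodes B-Myb of the MuvB activator complex, stood at 3.62 and 4.25 RPKM in the Glis3 knockdown, 3.81 and 3.37 RPKM in the CD133 knockdown, and 1.87 and 2.26 RPKM in control. Both rose by 0.69 in the Glis3 knockdown, and in the CD133 knockdown Mybl2 rose by 0.58 while Foxm1 had a value of 0.41 (limma adjusted p = 0.0684). E2f1, an activator of S phase genes, rose by 0.64 in the Glis3 knockdown and 0.59 in the CD133 knockdown, and E2f8, a repressor of the same family, rose by 0.71 in the Glis3 knockdown.

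Of 7 cyclins and kinases of G1 with Myc, 2 rose in each knockdown, against 8.39% of all tested genes in the Glis3 knockdown and 8.16% in the CD133 knockdown. The 2 genes were Ccnd2 (cyclin D2), at 0.52 in the Glis3 knockdown and 0.65 in the CD133 knockdown, and Cdk2, at 0.51 and 0.40. Of 11 inhibitors of the cycle, 3 rose and 1 fell in the Glis3 knockdown, and 1 rose and 0 fell in the CD133 knockdown. Both the single fall and the single rise are near the shares over all tested genes, 4.53% called lower in the Glis3 knockdown and 8.16% called higher in the CD133 knockdown. Cdkn2c, an inhibitor of the G1 kinases, stood at 7.13 and 7.60 RPKM in the Glis3 knockdown, 5.68 and 6.04 RPKM in the CD133 knockdown, and 3.34 and 4.04 RPKM in control, with no overlap between groups. It rose by 0.84 (limma adjusted p = 0.0061) in the Glis3 knockdown and by 0.55 (limma adjusted p = 0.0191) in the CD133 knockdown. Cdkn2d, of the same family, and Rbl1, a pocket protein relative of Rb, rose by 0.47 and 0.51 in the Glis3 knockdown. Cdkn2b, another of these inhibitors, stood at 28.8 and 30.1 RPKM in the Glis3 knockdown, 35.2 and 35.99 RPKM in the CD133 knockdown, and 36.3 and 38.2 RPKM in control, and fell by 0.33 in the Glis3 knockdown (limma adjusted p = 0.0152). Of 37 DNA synthesis genes, 28 rose in the Glis3 knockdown (median 0.49) and 14 in the CD133 knockdown (median 0.32), with 0 falls. The shares called higher over all tested genes were 8.39% and 8.16%. Rrm2, a subunit of ribonucleotide reductase, had the largest change of this list, at 1.13 in the Glis3 knockdown and 0.93 in the CD133 knockdown.

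**Figure D5:**
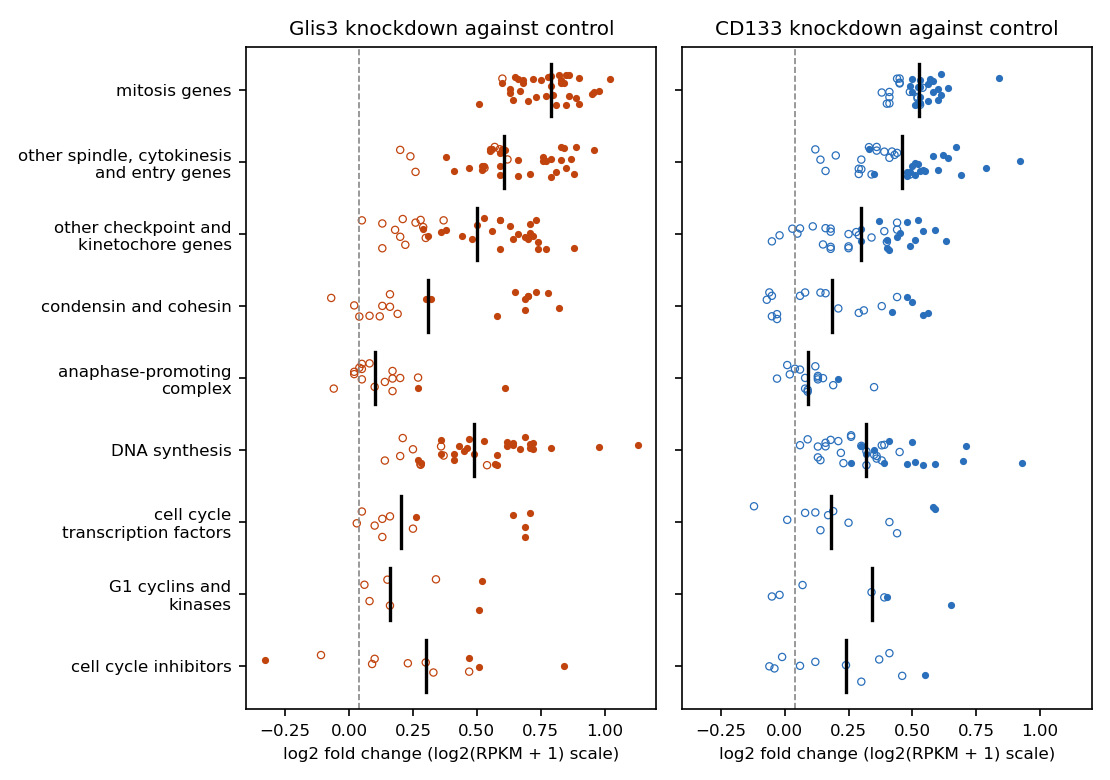
Log2 fold change of each gene against control (x axis, log2(RPKM + 1) scale) in the Glis3 knockdown (left) and the CD133 knockdown (right), by gene list, filled where the adjusted p was under 0.05. Black bars are list medians, 0.79 and 0.53 for the mitosis genes and 0.10 and 0.09 for the anaphase-promoting complex, and the dashed line is the median of all tested genes, 0.04 in both.

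Ductal epithelial markers moved beside the mitosis genes in the CD133 knockdown, where 4 of 9 tested rose and 2 fell, the target Prom1 among them. Over all tested genes 8.16% were called higher and 3.64% lower there. In the Glis3 knockdown 0 of 9 were called in either direction, against 8.39% of all tested genes called higher and 4.53% lower. Krt19, a duct keratin, stood at 825 and 620 RPKM in the CD133 knockdown, against 432 and 474 RPKM in control, and the ductal transcription factor Sox9 at 43.2 and 43.8 RPKM, against 33.7 and 31.4 RPKM in control. Spp1, the secreted protein osteopontin, stood at 3127 and 4202 RPKM in the CD133 knockdown, against 6490 and 6733 RPKM in control. The summed ductal markers ran from 7484 to 7820 RPKM in the CD133 knockdown and from 7502 to 8794 RPKM in the Glis3 knockdown, against 9481 to 10088 RPKM in control. The order of these sums rests on Spp1, since the other 8 markers summed to 3618 to 4357 RPKM in the CD133 knockdown and 3334 to 3582 RPKM in the Glis3 knockdown, against 2991 to 3355 RPKM in control. Of the 9 endocrine markers 6 had values, with sums of 7.25 to 13.9 RPKM in the Glis3 knockdown and 1.21 to 3.58 RPKM in the CD133 knockdown, against 4.57 to 11.2 RPKM in control, and the acinar marker Cela1 stood at 1.06 RPKM or less throughout. The part of these markers in the result was not tested.

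Exons of 8 members overlap those of a gene on the opposite strand in GENCODE M21, and the use of strand in counting is not given in the sources used here, so the values of Ccna2, Plk1, Cdc20, Kif20a, Ube2c, Nusap1, Prc1 and Ckap2l are less certain. Kif20a shares the most, 1271 bases with Cdc23, whose log2 fold change was 0.20 in the Glis3 knockdown (limma adjusted p = 0.108) and 0.15 in the CD133 knockdown (limma adjusted p = 0.195). Of the 8 overlapping genes 4 were tested, and Oip5, which shares 172 bases with Nusap1, was the 1 called, with log2 fold changes of 0.53 in the Glis3 knockdown (limma adjusted p = 0.0342) and 0.52 in the CD133 knockdown (limma adjusted p = 0.0384). Of the 28 members without such an overlap, 27 rose in the Glis3 knockdown and 15 in the CD133 knockdown. Among all tested genes 8.39% and 8.16% were called higher.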

How the data were processed

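Gene expression was measured in 6 libraries, 2 per group. The authors deposited 1 table of RPKM values with 2 decimals. TopHat2, HTSeq, bcl2fastq 2.18.0.12 and the build mm10 appear in the submitters' processing notes, without order or settings. For the annotation, the library total and scaling between samples, the sources used here give nothing. Columns were matched to samples by the names in the descriptions.

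Analysis used log2(RPKM + 1), and 10829 genes whose mean reached 1 RPKM were tested, all 36 members among them. In limma 3.58.1 (R 4.3.3) 1 linear model gave 3 group means, with a variance trend, 3 residual and 3.69 prior degrees of freedom. Two-sided p-values had Benjamini-Hochberg adjustment across every tested gene, and a gene was called at an adjusted p under 0.05. The log2(RPKM + 1) scale understates the change of low genes. The fit was tested on simulated data.

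Depth was taken as the total at which most low RPKM values of genes with 1 short GENCODE M21 transcript became whole reads. At the best depth 59.6% to 62.6% of 91 to 103 values per library came out whole within 0.15 read, against medians of 29.3% to 30.1% over the scan, so reads were not recovered and no count test was run. Reads behind a member are approximate.

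The members and lists were chosen with earlier results of these data known. Values in every library were given for the most abundant and the most changed member of each role and for those whose call differed from most, and Aurka, Ccnb1 and the other genes given so were added after their values were seen. Up to 4 called genes were named per other list. Alternatives were pseudocounts, filters, scalings, a block by replicate number, fits of 2 groups, no variance trend and leaving out each library.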

Additional observations from a re-analysis of the deposited data

How the results depend on the processing

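Every count of mitosis genes past the threshold in the lower direction was 0 under every alternative run. For the Glis3 knockdown against control the count of rises was 35 and lay between 28 and 35 under the alternatives that kept all libraries, and between 0 and 36 with 1 library left out. The median log2 fold change was 0.79, 0.52 with a pseudocount of 5, and 0.62 to 0.96 with 1 library left out. For the CD133 knockdown the count was 22, 36 with the 2 groups alone in the fit, 5 with the replicate number as a block, and 0 to 36 with 1 library left out, and the median was 0.53, 0.35 with a pseudocount of 5, and 0.46 to 0.60 with 1 library left out. Between the knockdowns the count was 0, with 0 to 16 and a median of 0.08 to 0.41 with 1 library left out. Leaving out a library leaves fewer for the spread, with the lone library of a group assumed to vary like those of the other groups, and apart from that the cause of these changes was not tested. A minimum mean of 5 RPKM left 29 members, 28 of them called in the Glis3 knockdown, and 913 genes called in all.

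The replicate numbers share no stated source. The deviations of same-numbered libraries correlated across genes at -0.372 for control and Glis3 knockdown, -0.428 for control and CD133 knockdown and 0.032 for the knockdowns, and the block gave 30, 5 and 0 members called, with 608, 335 and 79 genes called in all, against 1400, 1278 and 440 without it. With the control numbers exchanged, a fit chosen after seeing the data, the block gave 35, 23 and 0 members. With the 2 groups alone in the fit 58 genes were called between the knockdowns. Leaving out 1 library gave 21 to 1334, 0 to 1657 and 25 to 743 genes.

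Directions changed in uncalled values with 1 library left out. Between the knockdowns the log2 difference then ran from -0.11 to 0.09 for Ccnb1, -0.01 to 0.33 for Cdk1, -0.05 to 0.49 for Cenpe, -0.10 to 0.13 for Kif23, -0.0036 to 0.21 for Cdca8 and -0.04 to 0.31 for Ttk. Glis3 itself ran from -0.09 to 0.01 in the CD133 knockdown against control. The lowest count of any member was about 85 reads, for Cenpa in control library 1, and low counts can limit precision. Whether they did so here was not tested. Standard errors of single members cannot show it, since the log2(RPKM + 1) scale shrinks the spread of low values. Against control the standard error was 0.0803 for Cenpa. It was 0.231 for Mki67, which had the highest count, about 11400 reads in Glis3 knockdown library 3.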
